A study of Mus musculus with 3 samples.

Results

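Nodal is a secreted ligand of the TGF-beta family that embryonic stem (ES) cells make themselves. It binds type I and type II activin receptors together with the co-receptor Cripto, and the receptors phosphorylate SMAD2 and SMAD3, which enter the nucleus with SMAD4 and act on target genes with partners such as FOXH1. Nodal and the Lefty genes are themselves targets of this signal, and the Lefty proteins block the ligand and its co-receptor, so the pathway carries its own negative feedback. In the mouse embryo the pathway is known for forming mesendoderm and the left-right axis, and in cultured ES cells it is active without added ligand.

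The Nodal and Lefty signalling genes described here are 9 members: the ligand genes Nodal and Gdf3, the antagonist genes Lefty1 and Lefty2, the co-receptor gene Tdgf1 (Cripto), the receptor gene Acvr2b, the SMAD partner gene Foxh1, and the intracellular inhibitor genes Smad7 and Skil. They were found among the non-control probes by the gene name, accession or synonym in the scanner files. All 9 were present, on 10 of the 41174 probes, because Skil has 2. All 9 were among the 17717 genes tested, that is, genes with a probe well above background on at least 1 array.

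The cells were V6.5 mouse ES cells, whose background mixes 129 and C57BL6, kept on irradiated feeder cells with leukaemia inhibitory factor and preplated before RNA was taken. The Tet1 KO group holds 2 samples, KO 4 and KO 22, in which the gene for the 5-methylcytosine dioxygenase TET1 is knocked out. The WT group holds 1 sample with an intact Tet1 gene. The labels do not say whether KO 4 and KO 22 are separate clones, lines or cultures, so the spread behind the limma p-values is that between these KO samples alone and may be technical, and no spread of WT was measured.

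Each sample was hybridised to 1 Agilent 1-colour array, and all 3 arrays lie on 1 slide and were read in 1 scan. Of 43379 non-control spots per array, 62.2% to 62.8% stood well above background and 0 were saturated. Precision is limited by how few arrays there are. The probe for Tet1 read 214 and 195 in processed intensity on KO 4 and KO 22, against 721 on WT (difference -1.94 ± 0.09 on the log2 scale, limma adjusted p = 0.0529), and the labels do not place it inside or outside the deleted part. Of the ES cell markers Pou5f1, Sox2, Nanog, Esrrb, Zfp42, Klf4 and Dppa5a, 7 of 7 were well above background on each array, and their summed scaled level was 685 and 810.0 on the KO arrays (KO 4 first), against 743 on WT. Dppa5a holds most of this sum, and without it the sums were 217.3 (KO 4) and 217.1 (KO 22), against 203 in WT. Both KO arrays were higher than WT for 3 of the 7 and lower for 3, beside 38% and 45.5% of all genes tested. Relative to WT on KO 4 and KO 22, Pou5f1 stood at -0.46 and -0.47, Esrrb at -0.46 and -0.48 and Sox2 at -0.08 and -0.01. Klf4 stood at 0.41 and 0.40, Nanog at 0.17 and 0.32 and Zfp42 at 0.15 and 0.11, while Dppa5a was split (-0.20 and 0.14). None of the 7 passed in limma. Feeder fibroblast markers were also detected, 8 of 8 on each array, with a summed scaled level of 20.2 on KO 4, 16.5 on KO 22 and 17.6 on WT. Vim holds most of that sum, which is 7.78, 5.46 and 5.88 without it, and Thy1 is the largest of the rest. The matrix markers Col1a1, Col1a2, Col3a1, Dcn, Lum and Postn stood 0.69 to 1.13 above WT on KO 4. On KO 22 they stood from -0.73 to 0.27 relative to WT. Thy1 stood at -0.14 on KO 4 and -0.30 on KO 22, and Vim at 0.09 and -0.09.

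Levels below are scaled intensities, the processed intensity of a probe divided by the 75th percentile of its array. Differences are KO minus WT on the log2 scale, and their errors are limma standard errors with n = 2 KO arrays against 1 WT array. A scaled level cannot be set against that of another probe, so each gene is compared only with itself. Fewer cells of a type and less RNA per cell cannot be told apart in these bulk samples.

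Lefty1, Lefty2 and Nodal were each lower on both KO arrays than on WT, Gdf3 and Skil less so, and Smad7 was higher, while Tdgf1, Acvr2b and Foxh1 lay close to WT. None of these 9 differences passed the limma threshold of 0.05 after adjustment over all genes tested. Of all genes tested limma called 0.356% after adjustment, 0.0339% as higher and 0.322% as lower. Before adjustment 1 member had a p below 0.05 on the higher side and 5 on the lower side, beside 13.2% and 14.9% of all genes tested, or 28.2% in all. All 10 probes were well above background on all 3 arrays, so each value is a measured level and not a bound. The scanner software gave each of these 30 spot values an error near 10% of its intensity, which covers measurement of the spot and not the culture.

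**Figure D1:**
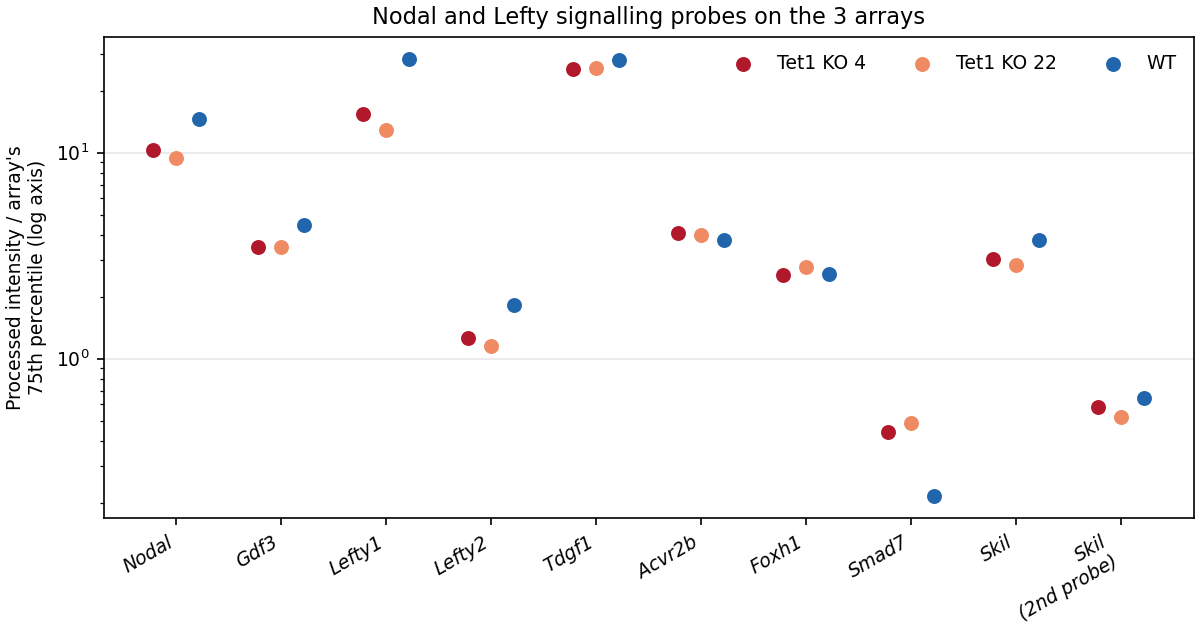
Scaled intensity (processed intensity divided by the 75th percentile of its array, log axis) of the 10 probes of the 9 genes, 1 point per array with KO 4 and KO 22 left of WT. Lefty1, Lefty2, Nodal, Gdf3 and both Skil probes lie lower on both KO arrays than on WT, and Smad7 lies higher; heights of different probes are not comparable.

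Of the ligands, Nodal had scaled levels of 10.3 (KO 4) and 9.38 (KO 22), against 14.5 in WT. Its processed intensity was 7402 and 6052 on the KO arrays and 9031 on WT. Both KO arrays were below WT, and the gap between them, 0.14 on the log2 scale, was smaller than the distance of either from WT. The difference was -0.56 ± 0.11, or 1.47-fold lower, with a 95% interval from -0.91 to -0.21 (limma adjusted p = 0.121). Both KO arrays lay at least 0.49 below WT, and 6.14% of all genes tested lay as far below WT on both. With an intensity trend in the variance model Nodal passed (limma adjusted p = 0.0127). With normexp background correction on all spots, under which limma called 78.2% of all genes, its difference was -0.046 (limma adjusted p = 0.711). The Nodal probe was matched by its name, with the accession X70514, and lies at 60942629 to 60942688 of chromosome 10 (build mm7).

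Gdf3 encodes a ligand related to Nodal that is made in pluripotent cells. Its scaled level was 3.49 on KO 4 and 3.50 on KO 22, against 4.47 on WT. The KO arrays were nearly equal and both lower than WT. The difference was -0.35 ± 0.09 (95% interval -0.63 to -0.08, limma adjusted p = 0.143). Its error is close to a shared minimum, because moderation draws the spread of each gene toward a prior SD of 0.088 and the KO arrays themselves differed by only 0.0024. It passed with an intensity trend (limma adjusted p = 0.0269), and its sign turned with normexp on all spots (0.065, limma adjusted p = 0.595). As far below WT on both KO arrays as Gdf3 lay 10.9% of all genes tested. The probe (NM_008108) lies at 122643573 to 122643632 of chromosome 6 (build mm7).

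The promoters of 3 of the 9 members, Nodal, Tdgf1 and Acvr2b, were found in the RefSeq promoter table on build GRCm38.p6. Those of Nodal, a ligand with lower values in the KO samples, and Tdgf1, its co-receptor with values near WT, are shown for the letters that SMAD and FOXH1 proteins are known to prefer. Each is the 250 bases before the start of the gene, along the gene's strand. The window of Nodal is chr10:61417722-61417971 on the + strand, and that of Tdgf1 is chr9:110946159-110946408 on the - strand. Capitals mark the SMAD letters CAGAC and the FOXH1 letters TGTNNATT, searched on both strands.
Nodal: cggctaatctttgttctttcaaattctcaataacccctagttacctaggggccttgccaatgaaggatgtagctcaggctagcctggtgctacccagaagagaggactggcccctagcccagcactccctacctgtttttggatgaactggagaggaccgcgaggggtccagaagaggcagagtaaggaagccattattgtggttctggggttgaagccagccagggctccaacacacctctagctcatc
Tdgf1: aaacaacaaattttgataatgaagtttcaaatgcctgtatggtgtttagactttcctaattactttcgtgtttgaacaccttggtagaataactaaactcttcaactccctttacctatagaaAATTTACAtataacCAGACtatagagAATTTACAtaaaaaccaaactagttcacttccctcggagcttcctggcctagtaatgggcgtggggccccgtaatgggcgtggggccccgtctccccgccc
In these windows the Nodal promoter held 0 matches to either, and the Tdgf1 promoter held 2 FOXH1 matches, starting 127 and 101 bases before the start of the gene, with 1 SMAD match between them at 113. The Acvr2b window held 1 SMAD match and 0 FOXH1 matches. Of the 32851 windows of this length in the table, 42.2% held the SMAD letters and 10.9% the FOXH1 letters. The motifs do not overlap each other in these windows. The CG count, the number of sites where DNA methylation can sit, was 3 in the Nodal window, 7 in the Tdgf1 window and 24 in the Acvr2b window, against a median of 6 over all windows. These matches describe the letters of the 250 bases only, and no binding was measured. Any relation between the matches and the values in the KO samples was not tested. Sites elsewhere in or near these genes were not searched, so 0 matches in a window does not mean that a gene lacks them.

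The antagonists gave the lower values with the greatest distance from WT among the members. Lefty1 encodes a secreted inhibitor that binds Nodal and its co-receptor. Its scaled level was 15.4 on KO 4 and 12.9 on KO 22, against 28.6 on WT, from processed intensities of 11019 and 8288 on the KO arrays and 17814 on WT. Both KO arrays were well below WT, by 0.90 on KO 4 and 1.15 on KO 22 on the log2 scale, and the gap between them was 0.26. The difference was -1.02 ± 0.16, or 2.03-fold lower, with a 95% interval from -1.51 to -0.53 (limma adjusted p = 0.105). KO 22 was 2.22-fold below WT and KO 4 was 1.86-fold below it, so Lefty1 was not at least 2-fold lower on both arrays. At least as far below WT on both KO arrays lay 350 genes, or 1.98% of all genes tested.

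Lefty1 passed the threshold in the series matrix values (-0.94, limma adjusted p = 0.0472), where only genes above background on all 3 arrays were tested (-1.02, limma adjusted p = 0.0461), and with an intensity trend in the variance model (limma adjusted p = 0.00627). The shares of all genes called lower under these 3 were 2.82%, 2.5% and 10.7%. Over all alternatives the difference ran from -1.15 to -0.49 and its adjusted p from 6.62e-06 to 0.183.

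Lefty2, a second Lefty gene and a known direct Nodal target in the embryo, had scaled levels of 1.27 (KO 4) and 1.16 (KO 22), against 1.82 in WT. The processed intensity was 909 and 746 on the KO arrays and 1132 on WT. Both KO arrays were lower than WT, with KO 22 again the further of them. The difference was -0.58 ± 0.11, or 1.5-fold lower (95% interval -0.93 to -0.24, limma adjusted p = 0.116), and 5.60% of all genes tested lay as far below on both arrays. It passed with an intensity trend (limma adjusted p = 0.0141) but missed in the series matrix values (-0.61, limma adjusted p = 0.0531). With normexp on all spots it stood at -0.33 (limma adjusted p = 0.00927). Both Lefty probes lie on chromosome 1 on build mm7, at 180877495 to 180877554 for Lefty2 (NM_177099) and 180917655 to 180917714 for Lefty1 (NM_010094), with 40100 bases between them. The Lefty genes are close relatives, and whether a probe also takes up RNA of the other was not tested.

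Lefty1 is also made in the primitive and visceral endoderm of the embryo, and markers of these cells were lower on the KO arrays as well. Of the 7 markers listed, Gata6, Gata4, Sox17, Sox7, Pdgfra and Dab2 were tested, and 6 of these 6 were lower on both KO arrays than on WT, beside 45.5% of all genes tested. Summed, they reached a scaled level of 0.596 (KO 4) and 0.561 (KO 22), against 1.09 in WT. Gata6, an endoderm transcription factor gene, read 106 and 83.0 in processed intensity on the KO arrays and 194 on WT. Afp, a marker of visceral endoderm, was not among the genes tested. None of the 6 passed (the lowest limma adjusted p was 0.0742, for Sox17), and the part of these cells in the Lefty1 values was not tested.

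**Figure D2:**
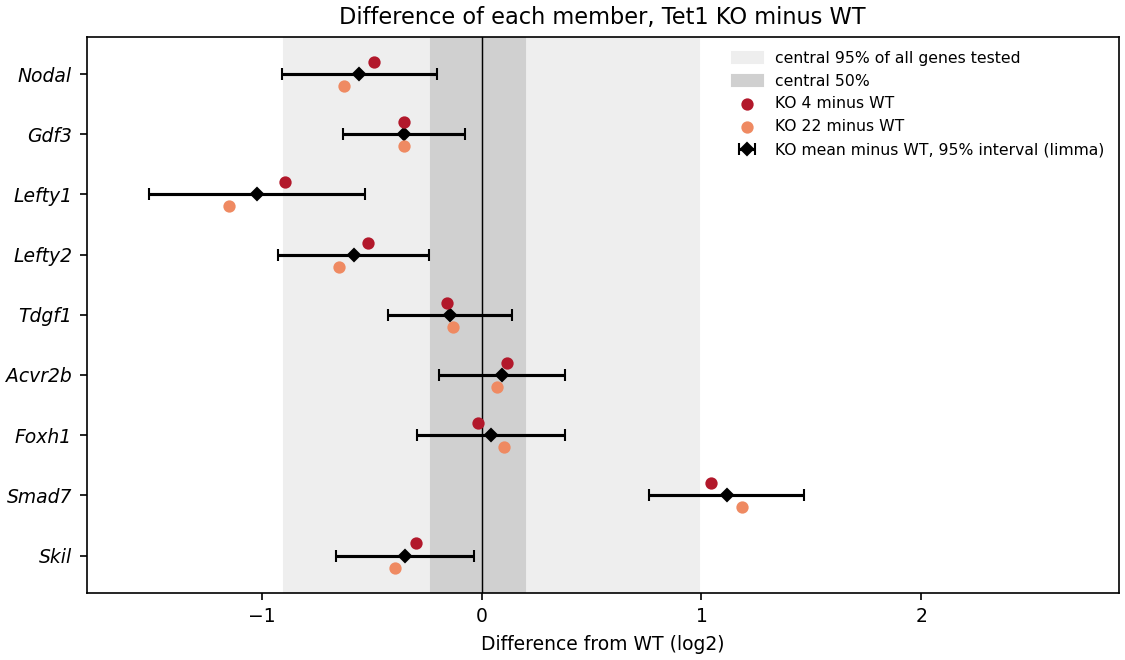
Difference from WT (log2) of each member for KO 4 and KO 22, with the KO mean and its 95% limma interval as a diamond and bar. The grey bands hold the central 95% (-0.90 to 0.99) and 50% (-0.23 to 0.20) of all 17717 genes tested. Lefty1 lies below the wider band at -1.02 and Smad7 above it at 1.11.

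The co-receptor and receptor genes lay near WT. Tdgf1 encodes Cripto, which brings Nodal to the activin receptors. Its scaled level was 25.3 on KO 4 and 25.8 on KO 22, against 28.2 on WT. Both KO arrays were slightly lower, by a difference of -0.14 ± 0.09 whose 95% interval, -0.43 to 0.14, spans 0 (limma adjusted p = 0.371). Before scaling, KO 4 was above WT (18158 against 17598) and KO 22 below it (16627), so the order of KO 4 and WT rests on the scaling. The sign also turned with normexp on all spots, where Tdgf1 was called higher (0.41, limma adjusted p = 0.00201). The probe (NM_011562) lies at 110638452 to 110638511 of chromosome 9 (build mm7).

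Acvr2b encodes a type II activin receptor. Its scaled level was 4.09 on KO 4 and 3.97 on KO 22, against 3.79 on WT, and both KO arrays were slightly higher. The difference was 0.09 ± 0.09 (95% interval -0.20 to 0.38, limma adjusted p = 0.560), and with normexp on all spots it was 0.47 (limma adjusted p = 0.000532). The listed span of its probe (NM_007397), chromosome 9 from 119108757 to 119110112 on build mm7, covers 1356 bases, against 60 for each of the other member probes.

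Foxh1 encodes the forkhead protein that carries activated SMADs to Nodal targets. Its scaled level was 2.56 on KO 4 and 2.78 on KO 22, against 2.59 on WT. WT lay between the KO arrays, and the gap between KO 4 and KO 22 (0.12 on the log2 scale) was wider than the mean difference of 0.04 ± 0.11 (95% interval -0.30 to 0.38, limma adjusted p = 0.823). Before scaling, both KO arrays were above WT (1834 on KO 4 and 1791 on KO 22, against 1614), so the place of WT between them rests on the scaling. The sign turned in the series matrix values (-0.023), and normexp on all spots gave 0.25 (limma adjusted p = 0.0443). The probe (NM_007989) lies at 76751277 to 76751336 of chromosome 15 (build mm7), and its spot has 2 neighbours within 2 rows and columns that were bright on 1 array alone. Such neighbours numbered 0 at the spots of the other members.

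The intracellular inhibitors differed from each other in direction. Smad7 encodes an inhibitory SMAD that blocks type I receptors and is itself switched on by TGF-beta family signals. Its scaled level was 0.443 on KO 4 and 0.488 on KO 22, against 0.215 on WT, from processed intensities of 318 and 315 on the KO arrays and 134 on WT. Both KO arrays were at least 2-fold above WT, and the gap between them was 0.14. The difference was 1.11 ± 0.11, or 2.16-fold higher, with a 95% interval from 0.76 to 1.47 (limma adjusted p = 0.0971). It was the only one of the 9 members at least 2-fold from WT on both KO arrays, beside 1.44% of all genes tested that were at least 2-fold higher and 1.56% that were at least 2-fold lower.

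Smad7 passed in the series matrix values (1.03, limma adjusted p = 0.0338), where all 3 arrays had to be above background (1.11, limma adjusted p = 0.0414) and with an intensity trend (limma adjusted p = 0.00556). The shares of all genes called higher under these 3 were 2.71%, 3.05% and 8.31%. Background correction by normexp moved it most: the difference was 0.030 on all spots, and 0.83 (limma adjusted p = 3.29e-05) once 8 spots dimmer than their own background, all 8 on the WT array, were left out. The probe (NM_008543) lies on chromosome 18.

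Skil encodes SnoN, a nuclear corepressor that binds SMADs and is known to be induced by TGF-beta family signals. Its brighter probe had scaled levels of 3.05 (KO 4) and 2.86 (KO 22), against 3.77 in WT. Its dimmer probe had 0.585 and 0.522 on the KO arrays, against 0.648 on WT. On both probes the KO arrays were lower. Before scaling, the dimmer probe read 420 on KO 4, 337 on KO 22 and 404 on WT, so its order of KO 4 and WT rests on the scaling. The brighter probe differed by -0.35 ± 0.10 (95% interval -0.66 to -0.03, limma adjusted p = 0.162). It passed with an intensity trend (limma adjusted p = 0.0362) and stood at 0.0037 with normexp on all spots. The dimmer probe, fitted beside all probes, differed by -0.23 ± 0.12 (limma adjusted p = 0.315), and the mean of both probes by -0.29 (limma adjusted p = 0.218). Both (NM_011386) lie on chromosome 3 on build mm7, the brighter at 30934287 to 30934346 and the dimmer at 30929474 to 30929533.

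Across the 9 members the KO arrays were both lower than WT for 6 and both higher for 2, and for Foxh1 they lay on either side. Of all genes tested, 45.5% were lower on both and 38% higher on both. Relative to WT the members' median was -0.30 for KO 4 and -0.35 for KO 22, beside -0.04 and -0.02 for all genes. Both KO arrays share the 1 WT array, so a high or low WT spot moves both differences at once. With an intensity trend limma called 1 member higher (Smad7) and 5 lower (Lefty1, Lefty2, Nodal, Gdf3 and Skil), beside 8.31% and 10.7% of all genes, or 19% in all. The series matrix values and the filter on all 3 arrays each called Lefty1 and Smad7 alone among the members, where 5.53% and 5.55% of all genes were called in either direction. With normexp without the dim spots the same 6 members as with the trend were called, beside 7.75% of all genes called higher and 10.7% lower, or 18.4% in all. Normexp on all spots called Lefty1 and Lefty2 lower and Tdgf1, Acvr2b and Foxh1 higher, but it called 78.2% of all genes, 29.4% higher and 48.8% lower.

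**Figure D3:**
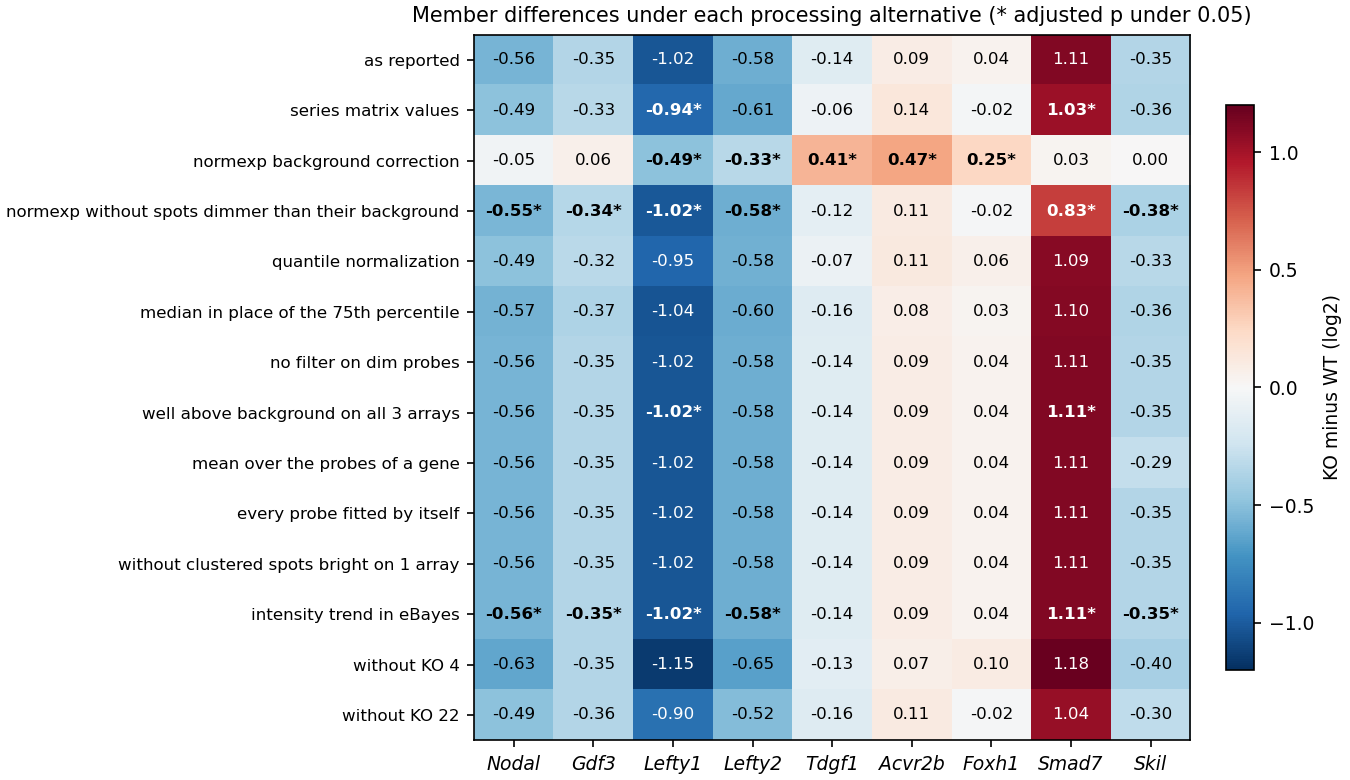
Difference of each member, KO minus WT (log2), as reported and under each processing alternative, as numbers on a colour scale. A star marks a limma adjusted p below 0.05. Lefty1, Lefty2 and Nodal keep a negative sign and Smad7 a positive one in every line. Lines that change only the filter, probe handling, clustered spots or variance model repeat their reported differences. Normexp background correction on all spots gives the smallest sizes for Nodal (-0.046) and Smad7 (0.030).

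The genes whose pair of differences was most like that of a member were found over the 3 arrays, among 13403 named genes well above background on all of them, by the distance between the pairs on the log2 scale. Nearest to Nodal were Tmc5 (distance 0.013), Klf16 (0.014) and Rbm19 (0.017). Nearest to Lefty1 were Gipr (0.013), Parp14 (0.019) and Rhox13 (0.036). Nearest to Lefty2 were Btbd9 (0.0046), Pclaf (0.0092) and Magee2 (0.016). With 3 arrays a pattern has only a pair of values, so many genes come close to any one.

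Of 46 other genes of the Nodal, activin and TGF-beta pathway, 42 were tested, and Cer1, Acvr1c, Tgfbr3 and Mixl1 were on the array but not tested. Limma called 0 of the 42 over all genes, though 12 on the higher and 4 on the lower side had an unadjusted p below 0.05, beside 13.2% and 14.9% of all genes. An intensity trend called 9 higher and 5 lower, beside 8.31% and 10.7%. Both KO arrays were higher for 26 and lower for 12, beside 38% and 45.5%. Their median relative to WT was 0.19 for KO 4 and 0.16 for KO 22.

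Of the 6 ligand genes, 3 were higher on both KO arrays and 2 lower. Tgfb3 read 571 and 347 in processed intensity on KO 4 and KO 22, against 191 on WT (1.09 ± 0.29, limma adjusted p = 0.152). Tgfb2 differed by 0.74 ± 0.14 (limma adjusted p = 0.118). Inhba, which encodes a subunit of activin A, was split, at 1.2 on KO 4 and -0.34 on KO 22 relative to WT. Fibroblasts also make these ligands, and the fibroblast markers stood at a median of 0.85 relative to WT on KO 4 and -0.08 on KO 22; their part was not tested.

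All 6 tested genes for ligand processing and extracellular antagonists were higher on both KO arrays, beside 38% of all genes, and their median stood 0.44 above WT on KO 4 and 0.29 above it on KO 22. The proprotein convertases that cleave Nodal into its active form were among them. Furin read 3099 and 2541 on the KO arrays against 1586 on WT (0.70 ± 0.11, limma adjusted p = 0.106), and Pcsk6 read 9434 and 7850 against 5662 (0.48 ± 0.10, limma adjusted p = 0.128). Inha, the inhibin alpha subunit gene, differed by 0.36 ± 0.10 (limma adjusted p = 0.150). The smallest difference of the 6 was that of Dand5, which lay close to WT (0.04 ± 0.09, limma adjusted p = 0.796).

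Among 5 receptor and co-receptor genes, 3 were higher on both KO arrays and 2 lower. Tgfbr2, the type II TGF-beta receptor gene, differed by 0.85 ± 0.20, the type I activin receptor gene Acvr1b by 0.32 ± 0.10 and Acvr2a by 0.24 ± 0.10 (limma adjusted p = 0.134, 0.188 and 0.237). Among 7 SMAD and partner genes, 5 were higher on both and 1 lower. Eomes, a T-box factor that works with SMADs in mesendoderm, read 154 and 157 on the KO arrays against 59.3 on WT (1.27 ± 0.13, limma adjusted p = 0.0971). Zfyve9, which encodes the SMAD anchor SARA, differed by 0.56 ± 0.11, and Smad3 by 0.29 ± 0.09 (limma adjusted p = 0.118 and 0.182).

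Among 9 intracellular inhibitor genes, 4 were higher on both and 3 lower. Smad6, the other inhibitory SMAD gene, differed by 0.55 ± 0.10 (limma adjusted p = 0.114) and was higher on both KO arrays, at 367 and 353 in processed intensity against 225 on WT. The ubiquitin ligase gene Smurf1 differed by -0.40 ± 0.09, and the pseudoreceptor gene Bambi by 0.30 ± 0.09 (limma adjusted p = 0.129 and 0.172).

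The 9 target genes listed lay on both sides of WT, with 5 higher on both KO arrays and 4 lower. Otx2, a homeobox gene of epiblast and anterior neuroectoderm, read 55.8 and 43.2 on the KO arrays against 184 on WT (-2.03 ± 0.14, limma adjusted p = 0.0765). Foxa2, an endoderm gene, read 184 and 149 against 469 (-1.63 ± 0.12, limma adjusted p = 0.0817). Fgf8 was on the other side, at 617 and 394 against 162 (1.48 ± 0.26, limma adjusted p = 0.112). At least 2-fold from WT on both arrays were Fgf8 and, among the partners, Eomes on the higher side, and Otx2 and Foxa2 on the lower. Mesendoderm markers, which are also Nodal-dependent in the embryo, summed to a scaled level of 1.07 (KO 4) and 0.819 (KO 22), against 0.381 in WT. The 5 tested were T, Gsc, Eomes, Wnt3 and Mesp1, and Mixl1 was not tested. T, Gsc and Eomes are also in the pathway list, so their values count in both. Of the 5, 4 were higher on both KO arrays, and Gsc was lower (-0.08 on KO 4, -0.07 on KO 22). On WT, T and Mesp1 read 13.2 and 12.5, close to the lowest intensity well above background there, 9.75. Wnt3 leads that sum, and without it the sums were 0.366 (KO 4) and 0.380 (KO 22), against 0.213 in WT. Of the trophoblast markers, Cdx2, Gata3, Tfap2c, Hand1 and Krt7 were tested and Elf5 was not. All 5 tested were higher on both KO arrays, Gata3 by only 0.10 on KO 4. Their sum was 14.9 (KO 4) and 15.4 (KO 22), against 10.7 in WT. Tfap2c leads this sum. Without Tfap2c the sums were 7.51 (KO 4) and 8.02 (KO 22), against 4.46 in WT, and most of each is Krt7. Of the neuroectoderm markers 1 of 4 was higher and 3 lower on both. Their sum of 6.01 (KO 4) and 5.53 (KO 22), against 9.28 in WT, is nearly all Nes, and the other 3 summed to 0.147 (KO 4) and 0.165 (KO 22), against 0.327 in WT. Pax6 leads these 3, at 49.9 and 57.2 in processed intensity on the KO arrays against 161 on WT. Relative to WT on KO 4 and KO 22, Sox1 stood at -0.30 and -0.14 and Olig3 at 0.42 and 0.31. The marker counts in each direction stand beside 38% of all genes higher and 45.5% lower on both KO arrays. None of these markers passed in limma, and their part in the pathway values was not tested.

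**Figure D4:**
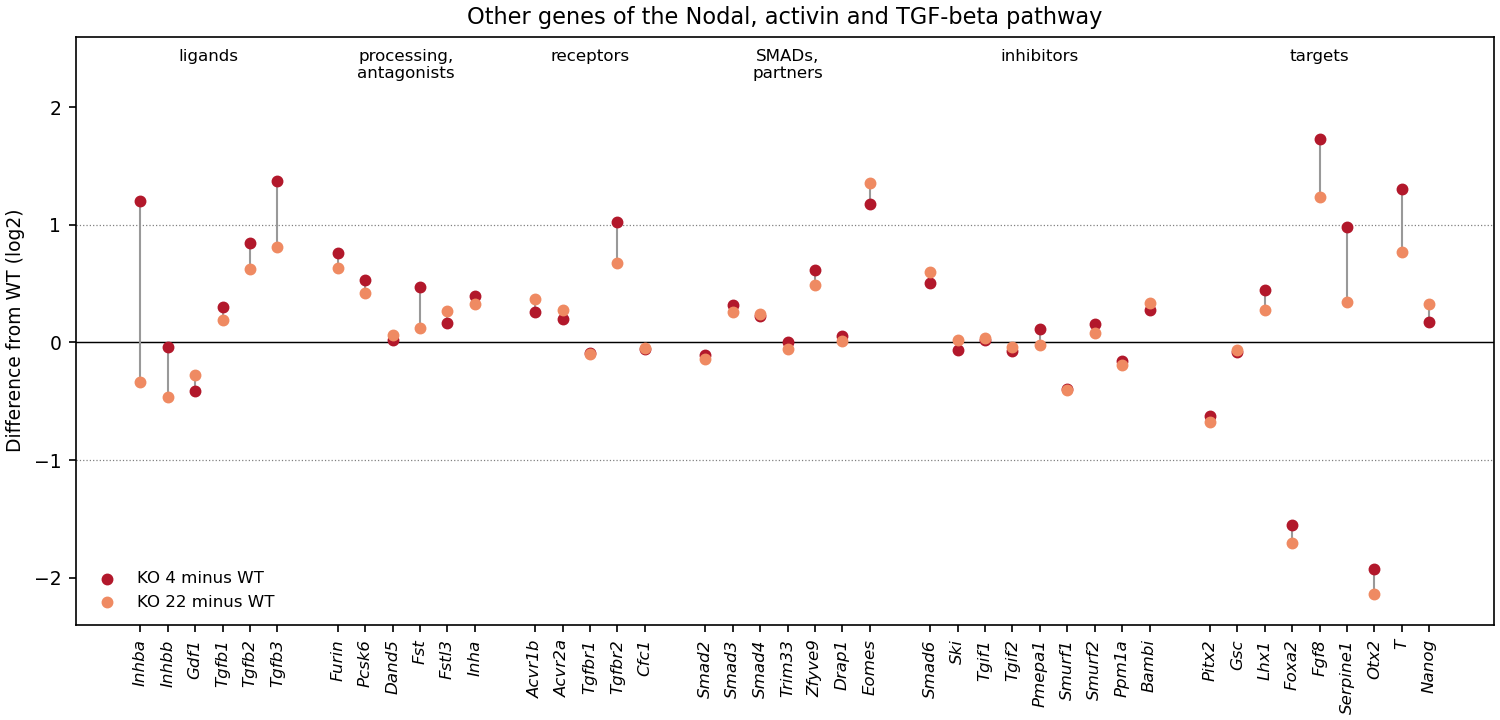
Difference from WT (log2) of the 42 tested pathway genes outside the 9 members, by role, for KO 4 and KO 22, with a line between the arrays and dotted lines at 2-fold. All 6 processing and antagonist genes lie above 0 on both arrays, Dand5 only just, while the targets run from -2.03 (Otx2) to 1.48 (Fgf8) in their mean.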

How the data were processed

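RNA of 2 Tet1 KO samples and 1 WT sample was read on Agilent arrays. Per the file headers, Agilent Feature Extraction 10.1.1.1 made the intensity of each spot in the deposited scanner output: background-subtracted, detrended within the array, dim values replaced by surrogates, with no scaling between arrays. The authors' deposited series matrix gives these arrays on a log2 scale. All columns have the median 5.52, and their correlation with log2 mean signal is 0.991 to 0.993; its background correction stays unknown. Per the submitters' processing notes limma was used, with no version stated.

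Here, outlier spots were left out, the log2 processed intensity was centred, array by array, on the 75th percentile of the non-control spots, and spots of a probe were averaged. Probes were named through RefSeq (GRCm38.p6), which matched 79.4%. Their positions are those of the files, on build mm7. The probe with the highest mean stood for its gene. KO was set against WT with limma 3.58.1 (R 4.3.3) and Benjamini-Hochberg adjustment over all genes, at a threshold of 0.05. There is 1 residual degree of freedom, 3.03 after moderation, and the lone WT array is assumed to vary like the KO arrays. A marker list's summed scaled level adds its tested genes. Promoter letters are from RefSeq. The orientation of its windows was checked by the letters TATAA near the start, which were met more often as listed than reversed on both strands.

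The members, lists and alternatives were chosen with earlier results of these data known. Named are the 9 members, and of the pathway list the 3 genes per role with the greatest mean difference, and the nearest 3 genes in pattern to Nodal, Lefty1 and Lefty2. Dand5 is named besides, as the smallest of its role. The fit was tested on simulated arrays with known changes.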

Additional observations from a re-analysis of the deposited data

How the results depend on the processing

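The members' differences were recomputed under 13 alternatives each. Those that change only the filter, probe handling, clustered spots or variance model return a single-probe member's difference as reported. They altered its adjusted p but not its sign or size, so the ranges rest on the other alternatives. Apart from normexp on all spots, Lefty1 ran from -1.15 to -0.90, Lefty2 from -0.65 to -0.52, Nodal from -0.63 to -0.49, Gdf3 from -0.37 to -0.32, Skil from -0.40 to -0.29, Tdgf1 from -0.16 to -0.056, Acvr2b from 0.068 to 0.14 and Smad7 from 0.83 to 1.18. These 8 kept their sign, while Foxh1 turned to -0.023 in the series matrix values, -0.015 with normexp without the 8 dim spots and -0.019 without KO 22. Without KO 4 or without KO 22 there is no test, and the members' differences from each array alone are those given above.

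The calls changed with the variance model and the values. With an intensity trend Nodal (limma adjusted p = 0.0127), Gdf3 (0.0269), Lefty1, Lefty2, Smad7 and Skil (0.0362) passed at the differences reported, -0.56, -0.35, -1.02, -0.58, 1.11 and -0.35. With normexp without the 8 dim spots the same 6 passed, at -0.55, -0.34, -1.02, -0.58, 0.83 and -0.38. Lefty1 and Smad7 also passed (-0.94 and 1.03) when taken from the series matrix, and with all 3 arrays above background (-1.02 and 1.11). With normexp on all spots the median of all genes was -0.20, and Gdf3 stood at 0.065, Tdgf1 at 0.41, Skil at 0.0037, Lefty1 at -0.49, Lefty2 at -0.33, Acvr2b at 0.47 and Foxh1 at 0.25. Without the 8 dim spots of the WT array that median was -0.05.

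Over all genes limma called 6 higher and 57 lower. From the series matrix it called 480 and 500, under normexp on all spots 5216 and 8642, and under normexp minus the 8 spots 1373 and 1892. It called 17 higher with the median as centre, 500 and 411 with all 3 arrays above background, 14 higher over single probes, and 1473 and 1900 with a trend. Without a filter limma called 0 of 27658, with 5971 at an unadjusted p below 0.05. At least 2-fold from WT on both KO arrays were 256 higher and 277 lower. From the series matrix these were 109 and 180, under normexp on all spots 104 and 5659, and minus the 8 spots 57 and 52. They were 385 and 521 without a filter, 152 and 131 with all 3 arrays above background, and 393 higher over single probes. With 1 KO array alone they were 423 to 486 higher and 381 to 388 lower. Except for the 8 spots, the cause of these changes was not tested. No paired analysis was possible because the groups share no replicate numbers, and WT cannot be left out.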
